A study of Mus musculus with 4 samples.

Results

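The immunoglobulin heavy chain isotypes are the 8 constant-region genes Ighm, Ighd, Ighg3, Ighg1, Ighg2b, Ighg2c, Ighe and Igha, found by symbol among the 31053 genes of the deposited feature list. They were read in single-cell libraries of pancreatic leukocytes, gated on CD45 by flow cytometry, from 12-week-old pre-diabetic female mice. The control library came from Ocabfl/fl mice and the CD4-Cre library from Ocabfl/fl.CD4-Cre mice, each made from pooled cells of 4 mice. A further pair of libraries, of the same genotypes, held CD3+ cells of the pancreatic lymph node, taken by magnetic separation from 8-week-old females, with 5 mice pooled in each. All 4 groups carry the floxed Ocab alleles, Ocab being an older name of Pou2af1. The Cd4 promoter drives Cre in T cells, including the precursors of CD8 T cells, and not in B cells. There was 1 library per group, so every difference below compares libraries, and the intervals, at 95%, stand for counting error and leave out any spread between animals.

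A B cell joins a variable segment to the first constant gene of the locus, Ighm, and makes IgM and, by alternative splicing, IgD. Class switching deletes the genes in between and brings a gamma, epsilon or alpha constant gene next to the same variable segment, giving IgG, IgE or IgA. Plasma cells secrete the chosen class, and Jchain joins the units of IgM and IgA polymers.

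The constant regions lie in a row on chromosome 12 (GRCm38, minus strand), each annotated in GENCODE M21 as an immunoglobulin constant gene. In the order of transcription, Ighm spans positions 113418558 to 113422730 and Ighd 113406604 to 113416324. The gamma genes follow, with Ighg3 at 113356224 to 113361232, Ighg1 at 113325240 to 113330523, Ighg2b at 113302965 to 113307933 and Ighg2c at 113285325 to 113288932. Ighe spans 113269260 to 113273248 and Igha, the last, 113254830 to 113260236. The kit reads the 5′ end of a transcript, so a heavy chain is told apart by the constant sequence next to the variable segment. The first 60 bases of the first constant exon, a coding exon, are shown for each gene from the GENCODE M21 transcripts, because they decide how well the classes can be separated. Capitals mark the 22 positions at which the 4 gamma genes are not all alike.

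Ighm (chr12:113422671-113422730): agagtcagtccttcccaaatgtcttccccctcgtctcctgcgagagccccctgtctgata
Ighd (chr12:113416265-113416324): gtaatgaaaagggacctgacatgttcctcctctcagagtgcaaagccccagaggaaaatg
Ighg3 (chr12:113361173-113361232): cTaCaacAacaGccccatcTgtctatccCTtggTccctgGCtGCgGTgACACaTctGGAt
Ighg1 (chr12:113330464-113330523): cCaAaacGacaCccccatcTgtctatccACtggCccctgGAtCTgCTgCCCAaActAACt
Ighg2b (chr12:113307874-113307933): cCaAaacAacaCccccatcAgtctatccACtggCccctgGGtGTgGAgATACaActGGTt
Ighg2c (chr12:113288873-113288932): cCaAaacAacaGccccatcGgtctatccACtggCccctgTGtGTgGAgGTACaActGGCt
Ighe (chr12:113273189-113273248): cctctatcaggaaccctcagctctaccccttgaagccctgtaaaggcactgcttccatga
Igha (chr12:113260177-113260236): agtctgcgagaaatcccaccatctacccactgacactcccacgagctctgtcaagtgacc

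The closest pair in these 60 bases is Ighg2b and Ighg2c, with 5 mismatches. Over the whole first exon the gamma genes were 78.4% to 88.3% identical to one another, and no pair of the 8 genes shared a run of 50 bases there. Over the whole transcripts Ighg2b and Ighg2c shared 70 such runs, and Ighg3 and Ighg2b shared 39. These runs lie outside the first exon, and whether they make the counts of these genes less certain was not tested.

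Barcodes were placed in ranges of marker counts rather than in named cell types. A plasma barcode had at least 20 unique molecular identifiers (UMIs) of Jchain, Mzb1, Xbp1 and Derl3 together, and a B barcode had at least 2 of Cd79a and Ms4a1 and was not a plasma barcode. A T barcode had at least 2 UMIs of Cd3d, Cd3e and Cd3g and was neither. After filtering, the pancreas control library kept 4004 of 4524 listed barcodes, with 931 B, 24 plasma and 2342 T barcodes. The pancreas CD4-Cre library kept 6243 of 6963, with 1351 B, 35 plasma and 4087 T barcodes. Median depth was 3569 and 3419 UMIs in B barcodes, 18873 and 19164 in plasma barcodes, and 3475 and 3559 in T barcodes, control first. The libraries held 20807342 and 32798133 UMIs in all. They had 46 listed barcodes in common, of which 2 were B or plasma barcodes in both and 0 were plasma barcodes in either.

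The targeted gene was lower in CD4-Cre T barcodes. Pou2af1, a transcriptional coactivator needed for normal antibody responses, had 46 UMIs (4.66 CPM, a level scaled to an equal total of UMIs) in pancreas control T barcodes and 10 UMIs (0.57 CPM) in those of CD4-Cre. In the lymph node it had 64 UMIs (4.67 CPM) in control T barcodes, and the count of 0 in CD4-Cre T barcodes allows at most 0.122 CPM. In B barcodes it stood at 214 CPM in both pancreas libraries, a log2 ratio with an interval from -0.13 to 0.13. All 7 of the listed B genes, 2 of which set the gate, were detected in at least 10% of B barcodes of both libraries, and 0 of the 7 reached that share in T barcodes. At least 2 UMIs of the 7 listed T genes were found in 35 control and 39 CD4-Cre B barcodes. One level in B barcodes moved with the library in another way: Lyz2, a myeloid gene, was at 252 CPM in control and 498 CPM in CD4-Cre, and its part in the levels of the heavy chain genes was not tested. Another rule left out barcodes with at least 2 Cd3 UMIs, or at least 10 of Lyz2 and Cst3 together, in place of scored doublets. Under it the difference in the Ighm share of B barcodes given next was -2.46 points.

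Nearly all B barcodes of the pancreas carried IgM or IgD as the leading class. Each barcode was given the member with most UMIs, and ties at the top stayed uncalled, which left 857 called B barcodes in control and 1189 in CD4-Cre. Ties made up 67 and 132 barcodes, and 7 and 30 had no UMI of any member. Ighm led in 730 control barcodes (85.2%, 82.6% to 87.5%) and in 984 CD4-Cre barcodes (82.8%, 80.5% to 84.9%). The difference was -2.42 points, with a Newcombe interval from -5.59 to 0.833, so it was not detectable at this depth.

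Ighd, the membrane class of mature naive B cells, led in 98 control barcodes (11.4%, 9.38% to 13.8%) and 172 CD4-Cre barcodes (14.5%, 12.5% to 16.6%). The difference of 3.03 points had an interval from 0.0531 to 5.91, just clear of 0, and it shrank to 0.234 points when each barcode was thinned to 1000 UMIs. The split between Ighm and Ighd also moved with the Ighm found outside B barcodes, described further on. With the T-barcode level of each member subtracted from every B barcode, Ighd led in 18.7% of control and 24.1% of CD4-Cre B barcodes. These shares depend on the gate taken as background. Ighm was at 195 and 216 CPM in T barcodes but at 61.4 and 57.6 CPM in neutrophil barcodes, control first.

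The switched classes, which are all members other than Ighm and Ighd, led in 29 control B barcodes (3.38%, 2.28% to 4.82%) and 33 CD4-Cre B barcodes (2.78%, 1.92% to 3.88%). The difference of -0.608 points had an interval from -2.25 to 0.888, so no difference in the switched share as a whole was detectable. Ighg2b, a gamma class that binds activating Fc receptors, was the leading switched member, with 16 barcodes in each library. Igha, the class of mucosal secretions, led in 5 control and 10 CD4-Cre barcodes. Ighg1 led in 1 and 6, and Ighg3, the gamma class typical of responses to polysaccharides, in 2 and 1. Ighg2c led in 5 control barcodes and 0 CD4-Cre barcodes, the latter allowing up to 0.252%, and this difference of -0.583 points had an interval clear of 0, from -1.36 to -0.119. Ighe led in none of the called B barcodes of either library, which allows up to 0.350% in control and 0.252% in CD4-Cre. In T barcodes with a call, switched members together led in 0.853% and 1.02%. The pooled switched share of B barcodes stood above that background, but single members did not all do so. Igha led in 0.474% and 0.765% of called T barcodes against 0.583% and 0.841% of called B barcodes, with overlapping intervals. Ighg1 led in 0.284% of called control T barcodes and 0.117% of called control B barcodes.

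**Figure D1:**
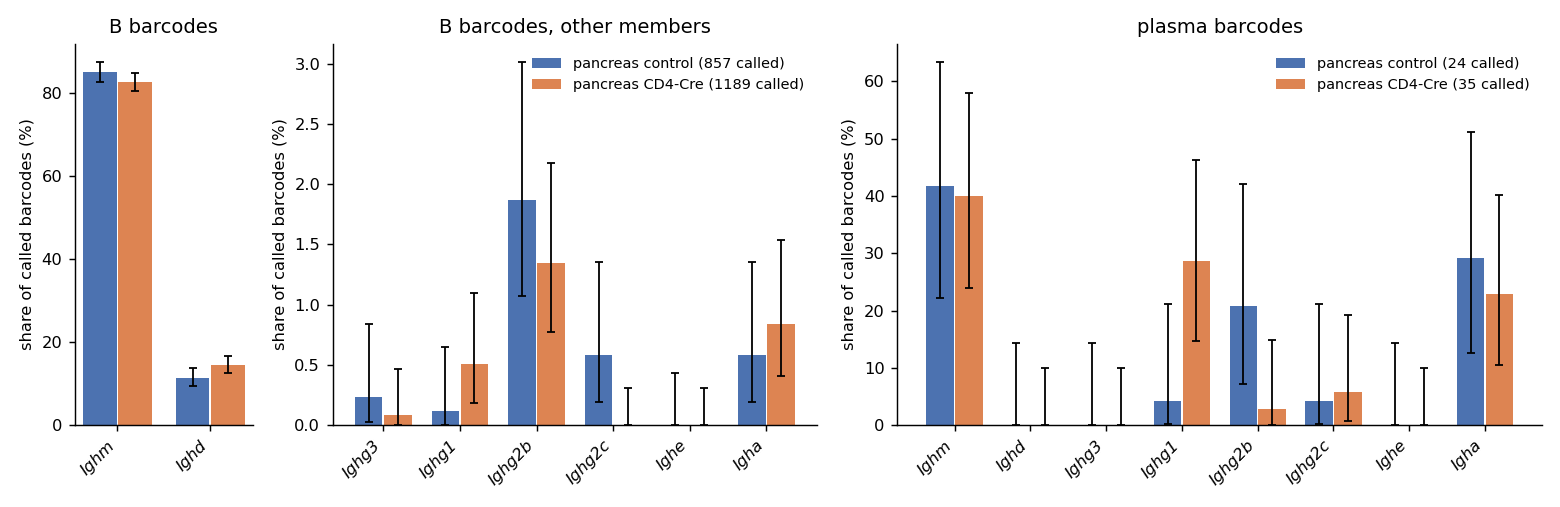
Share of called barcodes (%) led by each heavy chain gene in B barcodes (left, and the switched members on their own scale in the middle) and in plasma barcodes (right) of the pancreas control (blue) and CD4-Cre (orange) libraries. Lines are exact Clopper-Pearson 95% intervals; Ighm leads in over 80% of B barcodes of both libraries, while Ighg1 leads in 4.17% of control and 28.6% of CD4-Cre plasma barcodes.

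Within single B barcodes Ighd went with Ighm and not with the switched members. Among B barcodes led by Ighm, an Ighd UMI was also present in 71.5% of control and 58.4% of CD4-Cre barcodes. Among switched B barcodes an Ighd UMI was present in 0 of 29 and 0 of 33, which allows up to 10.3% and 9.09%. Ighm UMIs were found in 7 of the 29 and 3 of the 33 switched barcodes.

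The calls rest on few molecules. The leading member had a median of 6 UMIs in Ighm-led control B barcodes and 5 in those of CD4-Cre. For switched B barcodes these medians were 5 and 4. A call from 1 UMI was made in 3 of the 29 control and 5 of the 33 CD4-Cre switched barcodes. Near the lower limit of the B gate, barcodes with a marker sum of 2 numbered 6 in control and 7 in CD4-Cre, and those with a sum of 3 to 4 numbered 9 and 10. Barcodes with a sum of 1, just outside, numbered 54 and 68. An Ighd UMI was present in 0% (which allows up to 5.56%) and 8.82% of those with a sum of 1, in 0% (which allows up to 50%) and 42.9% of those with a sum of 2, and in 77.8% and 70.0% of those with a sum of 3 to 4. Of the barcodes with a sum of 2, just inside, 5 of the 6 in control and 3 of the 7 in CD4-Cre also held at least 2 Cd3 UMIs.

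Summed over all B barcodes, Ighm and Ighd were both lower in CD4-Cre, and by a similar factor. Ighm stood at 1522 CPM in control (1484 to 1561, exact Poisson interval). The CD4-Cre level was 1155 CPM (1127 to 1184). On the log2 scale CD4-Cre differed from control by -0.40 (-0.45 to -0.35), and this quantity is called the log2 ratio. The median B barcode held 5 Ighm UMIs in control, with quartiles of 3 and 8, and 4 in CD4-Cre, with quartiles of 2 and 6, so the lower level was spread over the gate and was not set by a few barcodes.

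Ighd stood at 449 CPM in control (428 to 470) and 336 CPM in CD4-Cre (321 to 352), and its log2 ratio was -0.42 (-0.51 to -0.32). Per Ighd UMI there were 3.39 Ighm UMIs in control (3.22 to 3.58) and 3.44 in CD4-Cre (3.27 to 3.62), with overlapping intervals. Other B-cell transcripts did not share the shift in full. The log2 ratio was -0.18 (-0.23 to -0.14) for Igkc, the kappa light chain constant gene, and 0.01 (-0.05 to 0.06) for the lambda gene Iglc2. Cd79a, which carries the signal of the B-cell receptor, was at 0.08 (0.06 to 0.11).

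Among the 7825 genes with enough UMIs in B barcodes the median log2 ratio was 0.07. Of these genes, 7.69% were lower and 19.1% were higher in CD4-Cre by at least 1.2-fold, a limit chosen after the data were seen. The heavy chain genes among them were Ighm, Ighd, Ighg1, Ighg2b and Igha, and 3 of these 5 were lower by at least 1.2-fold and 1 was higher. A difference of at least 2-fold was reached by 0.818% of the genes on the higher side and 0.281% on the lower side, and by Ighg1 and Ighg2b respectively. Ighg1 entered this set only through CD4-Cre, where its sum of 50 UMIs just met the limit for entry. The control sum of Ighg1 was 9. Entry by the higher library favoured a large ratio for such a gene, so its place on the higher side cannot be weighed against these shares.

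The switched members were summed from few barcodes. Ighg2b had 177 UMIs (44.7 CPM) in control B barcodes and 99 UMIs (18 CPM) in CD4-Cre, with a log2 ratio of -1.31 (-1.68 to -0.95). A single control barcode held 50 of the 177 UMIs. Ighg1 had 9 UMIs (2.27 CPM) and 50 UMIs (9.08 CPM), a log2 ratio of 2.0 (0.96 to 3.21), and 43 of the 50 lay in 5 barcodes. For Ighg2c, 24 and 8 UMIs gave a log2 ratio of -2.06 (-3.43 to -0.86). For Ighg3, 29 and 16 UMIs gave -1.33 (-2.31 to -0.41). Igha was at 15.7 and 17.2 CPM, a log2 ratio of 0.14 (-0.34 to 0.63). Ighe had 1 UMI in control and 0 in CD4-Cre.

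Ighm, Igha, Ighg1, Ighg2b and Ighg2c reached their highest levels in the plasma barcodes. Igha stood at 14865 CPM in control and 8395 CPM in CD4-Cre, and Ighm at 11960 and 6482. The corresponding levels in CPM were 4895 and 2506 for Ighg1, 1880 and 2023 for Ighg2c, and 977 and 142 for Ighg2b. These sums belong to few barcodes. Of the 2380 control UMIs of Ighg1, 2378 came from 1 barcode, all 914 of Ighg2c came from 1, and 429 of the 475 of Ighg2b came from 1. The log2 ratio of Ighg2b, -2.78 as summed, became 0.60 without the 5 barcodes with most of its UMIs in each library, a setting chosen after the data were seen. Those barcodes held 472 of the 475 control UMIs and 96 of the 104 CD4-Cre UMIs. The value of 0.60 therefore rests on very few UMIs and gives no direction. Over the 1586 genes with enough UMIs in plasma barcodes, 7.57% were higher and 2.71% lower by at least 2-fold. Ighg2b was the only one of the 5 heavy chain genes among them to pass that fold, and with 24 and 35 barcodes the sums describe those barcodes.

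Counted by barcode, Ighm led most often in the plasma gate of both libraries, an order that did not hold under other gates. Ighm led in 10 of 24 control barcodes (41.7%, 22.1% to 63.4%) and 14 of 35 CD4-Cre barcodes (40%, 23.9% to 57.9%). Igha led in 7 (29.2%) and 8 (22.9%). With a plasma sum of at least 40, Igha led in 7 and Ighm in 4 control barcodes, and each led in 7 CD4-Cre barcodes. With doublets kept, Ighg1 led in 16 and Ighm in 15 of 42 CD4-Cre barcodes. The classes that differed were gamma classes. Ighg1 led in 1 control barcode (4.17%, 0.105% to 21.1%) and 10 CD4-Cre barcodes (28.6%, 14.6% to 46.3%), a difference of 24.4 points (4.2 to 41.2). It was 15.6 points with a plasma sum of at least 40 and 5.00 points in barcodes with fewer than 4 Ms4a1 UMIs. Ighg2b led in 5 (20.8%) and 1 (2.86%), a difference of -18 points (-37.8 to -1.53). All 4 gamma classes together led in 7 (29.2%) and 13 (37.1%), a difference of 7.98 points with an interval from -16.4 to 29.8, so no difference in the gamma classes as a whole was detectable at this depth. Ighd, Ighg3 and Ighe led in none of the plasma barcodes of either library, which allows up to 12.5% in control and 8.57% in CD4-Cre.

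The gate was split into 2 kinds of barcodes by Jchain, and whether a class difference was itself unlike in the 2 kinds was not tested. Barcodes with at least 100 Jchain UMIs, a limit set after the data were seen, numbered 14 in control and 17 in CD4-Cre. Their leading member had a median of 878 UMIs in control and 657 in CD4-Cre. UMIs of Sdc1, a surface proteoglycan of plasma cells, were present in 13 of 14 and 13 of 17. Ms4a1, the CD20 gene that plasma cells lose, was absent from most, with UMIs in 5 and 6 of them.

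In these barcodes Igha led in 7 control and 7 CD4-Cre barcodes, Ighm in 4 and 4, Ighg1 in 1 and 3, Ighg2b in 1 and 1, and Ighg2c in 1 and 2. No class differed between the libraries beyond its interval, the Ighg1 difference of 10.5 points running from -16.4 to 34.6. The leading member made up a median of 100% of all heavy chain UMIs in control and 99.4% in CD4-Cre. The lowest value was 66.7%, in a CD4-Cre barcode with 28 Ighg2b and 14 Igha UMIs. The heavy chain genes took a median of 4.17% and 2.94% of all UMIs of these barcodes. The 4 Ighm-led CD4-Cre barcodes carried 624 to 1633 Ighm UMIs, and 3 of them had Ighv1-42 as the leading variable segment. Whether they belong to 1 clone was not tested.

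The other plasma barcodes, 10 in control and 18 in CD4-Cre, had under 100 Jchain UMIs and kept B-cell transcripts. All of them had Ms4a1 UMIs, and Sdc1 UMIs were present in 0 of 10 and 1 of 18. Their leading member had a median of 15.5 UMIs in both libraries. Ighg1 led in 0 control and 7 CD4-Cre barcodes, with 7 to 19 Ighg1 UMIs each, and Ighg2b led in 4 control and 0 CD4-Cre barcodes, with 3 to 13 Ighg2b UMIs each. Ighm led in 6 and 10.

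Some genes of the germinal centre list were detected in these gamma barcodes, the germinal centre being the site where B cells divide and mutate their receptors. S1pr2, a receptor that holds B cells in the germinal centre, had UMIs in all 7 Ighg1-led CD4-Cre barcodes and in all 4 Ighg2b-led control barcodes. The proliferation gene Mki67 had UMIs in 6 of the 7 and 3 of the 4. Bcl6, the repressor that defines germinal centre B cells, had UMIs in 4 of the 7 and 1 of the 4. The 10 Ighm-led CD4-Cre barcodes held such transcripts too, with Mki67 UMIs in 7, S1pr2 UMIs in 4 and Bcl6 UMIs in 4. In the 6 Ighm-led control barcodes these numbers were 2, 1 and 0. Barcodes with under 100 Jchain UMIs were deep, with medians of 14952.5 UMIs in control and 17249.5 in CD4-Cre, which raises the rate of detection. Ighv1-19 and Ighv1-7 were each the leading variable segment in 3 of the 7 Ighg1-led barcodes, from 1 to 6 UMIs, and Ighv1-7 also led in 4 of the 10 Ighm-led ones. In 1 of the 4 control Ighg2b barcodes no segment had a UMI, and the other 3 had 3 different ones. Among the Ighm-led barcodes, 5 of the 6 in control and 4 of the 10 in CD4-Cre had no Jchain UMI at all and held 15 to 28 and 16 to 20 Ighm UMIs. Barcodes just outside the gate, with a plasma sum of 15 to 19, numbered 6 and 13, and those just inside, with 20 to 24, numbered 8 and 5.

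**Figure D2:**
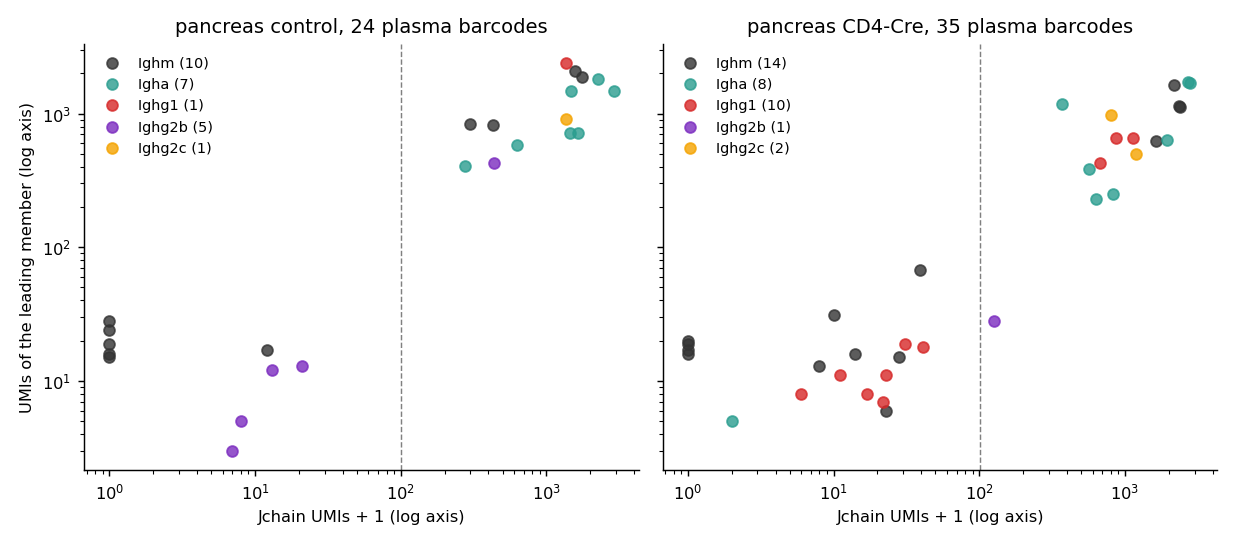
Each point is a plasma barcode of the pancreas control (left) or CD4-Cre (right) library, with its Jchain UMIs plus 1 on the x axis and the UMIs of its leading heavy chain gene on the y axis, both on log axes, and the colour giving the leading gene with its number of barcodes. The dashed line marks 100 Jchain UMIs; the 7 Ighg1-led points left of it are all in CD4-Cre and the 4 Ighg2b-led ones all in control.

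Ighm, alone among the members, was also found at a clear level in T barcodes. It stood at 195 CPM (187 to 204) in pancreas control, 216 CPM (209 to 223) in pancreas CD4-Cre, 268 CPM (260 to 277) in lymph node control and 254 CPM (248 to 261) in lymph node CD4-Cre. The lymph node CD4-Cre library had 0 B barcodes among 5307 kept and its T level was above that of both pancreas libraries, from which it differs in tissue, age and cell selection. The other 7 members were at 2.35 CPM or lower in T barcodes of all 4 libraries.

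An Ighm UMI was found in 44.8% and 47.8% of pancreas T barcodes and in 63.0% and 60.9% of lymph node T barcodes, control first. Spread evenly over barcodes by their depth, the same UMIs would reach 51.3%, 55.1%, 70.4% and 66.7%. Thinned to 1000 UMIs, the pancreas shares were 18.3% and 19.1%, against 71.4% and 64.9% of B barcodes and 5.08% and 2.99% of neutrophil barcodes. Neutrophil barcodes were shallower, with medians of 2342 and 2028 UMIs, and as counted 12.5% and 11.6% of them had an Ighm UMI. The order B, T, neutrophil was the same by CPM, with 61.4 and 57.6 CPM in neutrophil barcodes.

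T barcodes held far more Ighm per UMI of other B-cell transcripts than B barcodes did. There were 161 Ighm UMIs per Ighd UMI (91.9 to 312) in pancreas control T barcodes and 171 (113 to 274) in CD4-Cre, against 3.39 and 3.44 in B barcodes. In the lymph node T barcodes the ratio was 283 (165 to 532) and 447 (266 to 818). Per Igkc UMI there were 13.6 and 13.8 Ighm UMIs in pancreas T barcodes, and 105 and 216 in lymph node T barcodes, against 0.801 and 0.691 in pancreas B barcodes. These intervals lie far apart. T barcodes with no UMI of Ighd, Igkc, Cd79a, Ms4a1, Jchain or Cd74, a subset chosen after the data were seen, held Ighm at 200 and 216 CPM in the pancreas and at 267 and 255 CPM in the lymph node.

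Ighm was lower, but present, in the NK, myeloid and neutrophil gates of the pancreas. It stood at 145 and 139 CPM in NK barcodes, and at 134 and 108 CPM in myeloid barcodes, control first. Barcodes of a plasmacytoid dendritic gate, with at least 2 Siglech UMIs, were few and not lower. There Ighm was at 210 CPM (90.6 to 414) in 3 control barcodes and 497 CPM (371 to 652) in 13 CD4-Cre barcodes. The myeloid level of Ighm was 68.5% and 50.3% of its T level. Cd3e, a T-cell receptor subunit, was at 0.0592% and 0.145% of its T level in myeloid barcodes. The gates fix that low level, because barcodes with at least 2 Cd3 UMIs were placed in the T gate first. The Cd3e values therefore cannot show how much T-cell RNA the myeloid barcodes took up. Within T barcodes, those with Cd4 UMIs alone held 226 and 238 CPM in the pancreas and those with Cd8a or Cd8b1 UMIs alone held 133 and 163 CPM, intervals that do not overlap. In the lymph node the CD4 values were 261 and 256 CPM and the CD8 values 265 and 239 CPM. The source of the Ighm UMIs outside B and plasma barcodes was not tested.

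**Figure D3:**
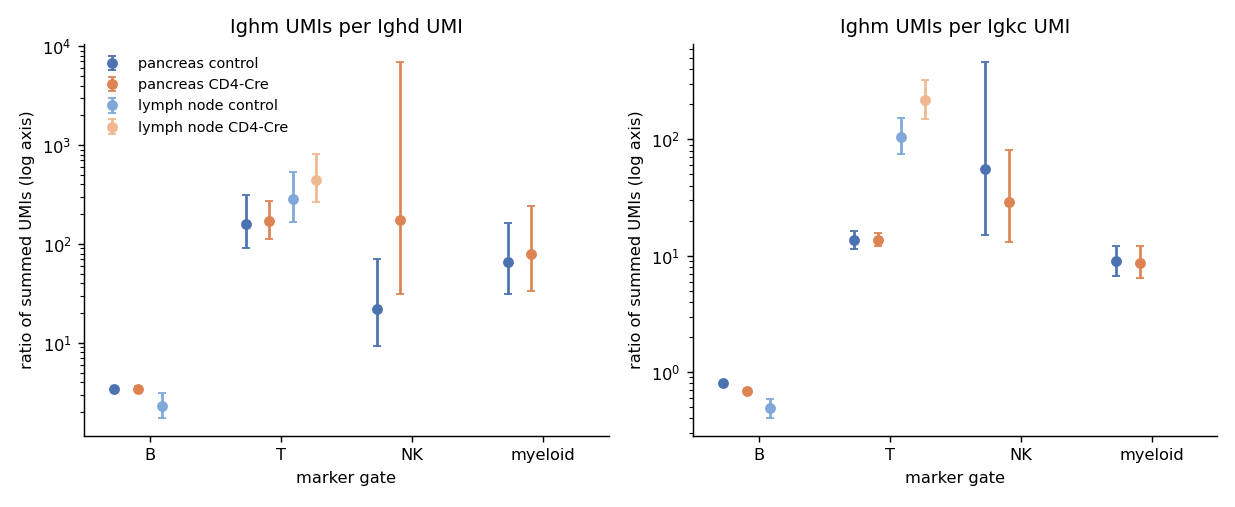
Ratio of summed Ighm UMIs to Ighd UMIs (left) and to Igkc UMIs (right) in B, T, NK and myeloid barcodes, on log axes, with the 4 libraries in colour and 95% intervals for counting error. B barcodes sit at 3.39 and 3.44 Ighm per Ighd UMI in the pancreas, and T barcodes of all libraries at 161 or more.

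**Figure D4:**
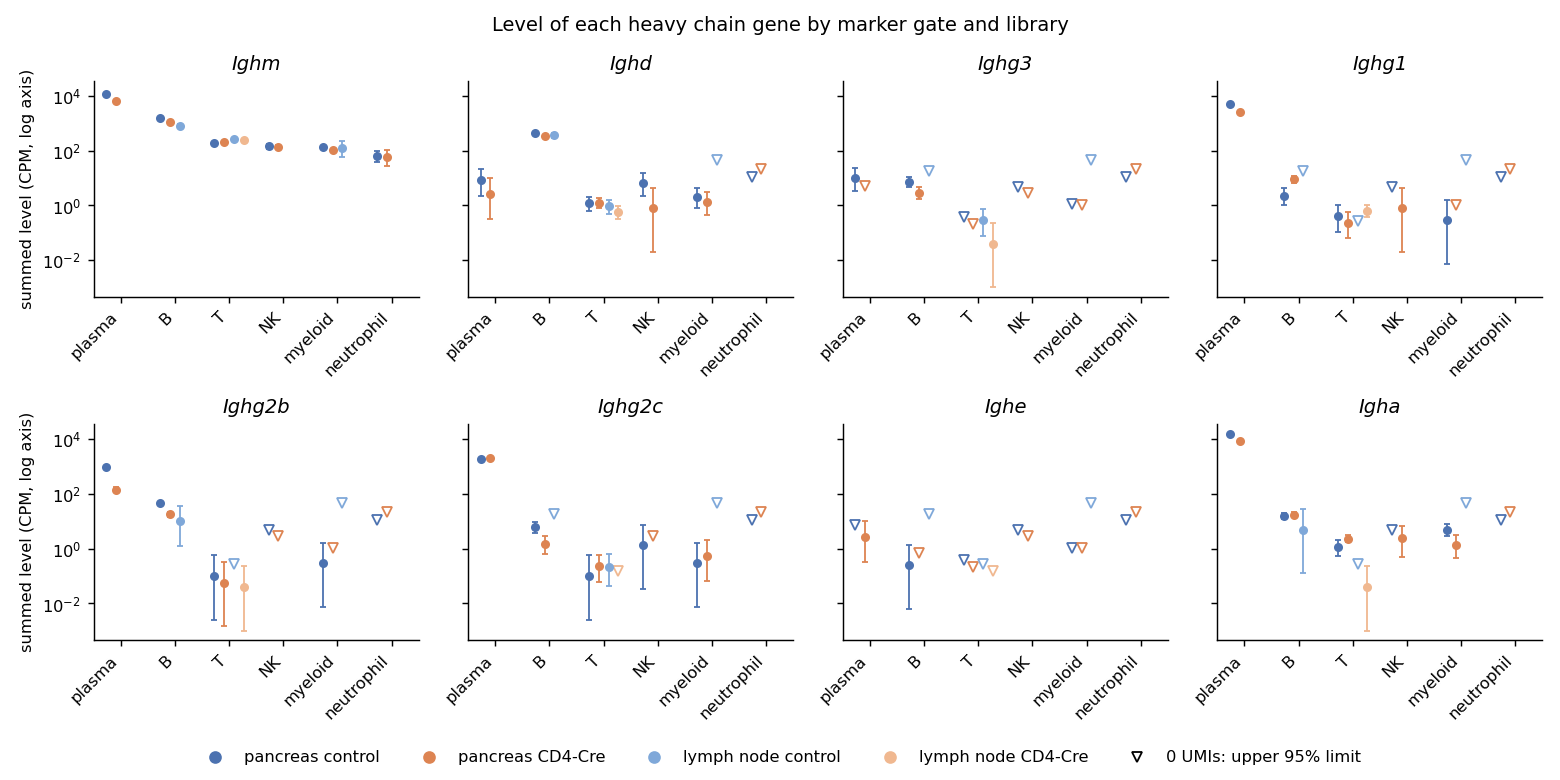
Summed level in CPM (log axis) of each heavy chain gene in the marker gates of the 4 libraries, with exact Poisson 95% intervals, and open triangles at the upper limit where no UMI was counted. Gates with under 20 barcodes are left out; Ighm stays above 50 CPM in all pancreas gates shown, while the other members drop steeply outside B and plasma barcodes.

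By summed level, the order of the members in control B barcodes was Ighm, Ighd, Ighg2b, Igha, Ighg3, Ighg2c, Ighg1 and Ighe. The intervals of Ighg3 (4.90 to 10.5 CPM) and Ighg2c (3.88 to 9.02 CPM) overlap, and so do those of Ighg2c and Ighg1. In control plasma barcodes the order was Igha, Ighm, Ighg1, Ighg2c, Ighg2b, Ighg3, Ighd and Ighe, with overlapping intervals for Ighg3, Ighd and Ighe. The genes most like each member were sought over 14 points, 7 gates in each of the pancreas libraries, among 10861 genes by the correlation of log2 CPM. The points share libraries and gates defined by markers, so the values are a description. Ighm was closest to Mef2b (r = 0.97) and Mzb1 (0.97), the latter being in the plasma gate, Ighd to Smim14 (0.94), Ighg1 to Prg2 (0.99) and Igha to Derl3 (0.97), again a gate gene.

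B barcodes of different classes differed in other genes. Genes of 10 lists were compared between class sums within each library, and a gene was counted where the interval of the log2 ratio lay on the same side of 0 in both. The intervals treat UMIs as independent and are too narrow where few barcodes hold them. Of the 9789 genes compared between switched and Ighm-led B barcodes, 1.07% were higher and 0.96% lower in the switched class by this rule. Of the 9868 compared between Ighd-led and Ighm-led ones, 0.557% were higher and 0.932% lower in the Ighd class.

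Switched B barcodes had less of the follicular naive genes, 3 of 5 being lower. Fcer2a, the low-affinity IgE receptor CD23 of follicular B cells, was at 369 CPM in Ighm-led and 107 CPM in switched control barcodes, and at 418 and 177 CPM in CD4-Cre. Cr2, the complement receptor CD21, had log2 ratios of -2.69 (-4.97 to -1.13) and -1.17 (-2.24 to -0.28). Cd55, a complement regulator, was at -1.62 and -1.09. Fcmr, the IgM receptor, was at -1.21 (-1.70 to -0.75) and -0.84 (-1.25 to -0.46).

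Of the 8 germinal centre genes, 3 were higher in switched B barcodes and 0 lower. Fas, a death receptor of germinal centre B cells, had log2 ratios of 3.73 (2.72 to 4.70) and 2.76 (1.60 to 3.79). Mki67 was at 2.12 and 3.60 and S1pr2 at 5.32 and 3.31. These sums rest on few barcodes. Mki67 UMIs were in 4 of 29 control and 2 of 33 CD4-Cre switched barcodes, and S1pr2 UMIs in 3 and 1. Bcl6 was not raised, with log2 ratios of 0.04 (-2.28 to 1.66) and -1.18 (-6.51 to 1.35). Mef2b, Rgs13 and Gcsam were higher in the switched class of control alone. Thinned to 1000 UMIs, 1 of the 8 germinal centre genes and 1 of the 5 follicular genes still met the rule.

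Outside these lists, Cxcr3, a chemokine receptor of activated and memory lymphocytes, was at 7.90 and 138 CPM in Ighm-led and switched control barcodes and at 6.68 and 139 CPM in CD4-Cre. Its UMIs were in 11 of 29 and 6 of 33 switched barcodes. It was the only one of 8 memory and atypical genes to meet the rule. Of 9 marginal zone and B-1 genes, Bhlhe41 (log2 ratios 1.47 and 1.77) and Spn (2.16 and 1.56) were higher in the switched class. By the rule, 0 of them were lower. Plac8 of the same list was lower in the control library alone, with a log2 ratio of -0.86 (-1.33 to -0.42). Its CD4-Cre ratio was 0.16 (-0.17 to 0.48). Of 5 mucosal homing genes, the integrin subunit Itga4 was higher, at 1.19 (0.67 to 1.68) and 1.56 (1.11 to 1.98). Of 8 genes of the secretory endoplasmic reticulum, Hspa5 and Sdf2l1 were lower. None of the 9 class switching genes and none of the 7 plasma regulators met the rule.

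B barcodes led by Ighd leaned the other way on 3 of the 5 follicular genes, which were higher than in Ighm-led barcodes. Fcer2a had log2 ratios of 0.35 (0.11 to 0.58) and 0.54 (0.37 to 0.70), control first, and Ccr7, which guides cells into lymphoid tissue, 0.61 (0.37 to 0.86) and 0.44 (0.24 to 0.65). Cd55 was also higher. Klf2 of the same list was lower in control, at -0.51 (-0.70 to -0.32), and at -0.06 (-0.18 to 0.06) in CD4-Cre. Cr2 was at 0.34 (-0.09 to 0.74) and -0.19 (-0.56 to 0.16). Thinned to 1000 UMIs, 0 of the 5 met the rule.

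Of the 9 marginal zone and B-1 genes, 2 were lower in the Ighd-led barcodes and 0 higher, and of the 8 memory and atypical genes 2 were lower and 0 higher. Plac8 was at 490 CPM in Ighm-led and 251 CPM in Ighd-led control barcodes and at 473 and 173 CPM in CD4-Cre. Zbtb32, a repressor found in memory B cells, was at 40.4 and 2.70 CPM in control and at 49.1 and 0 CPM in CD4-Cre. Fcrl5, an inhibitory receptor of innate-like and atypical B cells, was at -1.49 (-3.14 to -0.23) and -1.62 (-2.96 to -0.54) on the log2 scale. Bhlhe41 was lower in both libraries, from 3 UMIs and 1 UMI in the Ighd class. No germinal centre, class switching or plasma regulator gene met the rule between these classes.

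**Figure D5:**
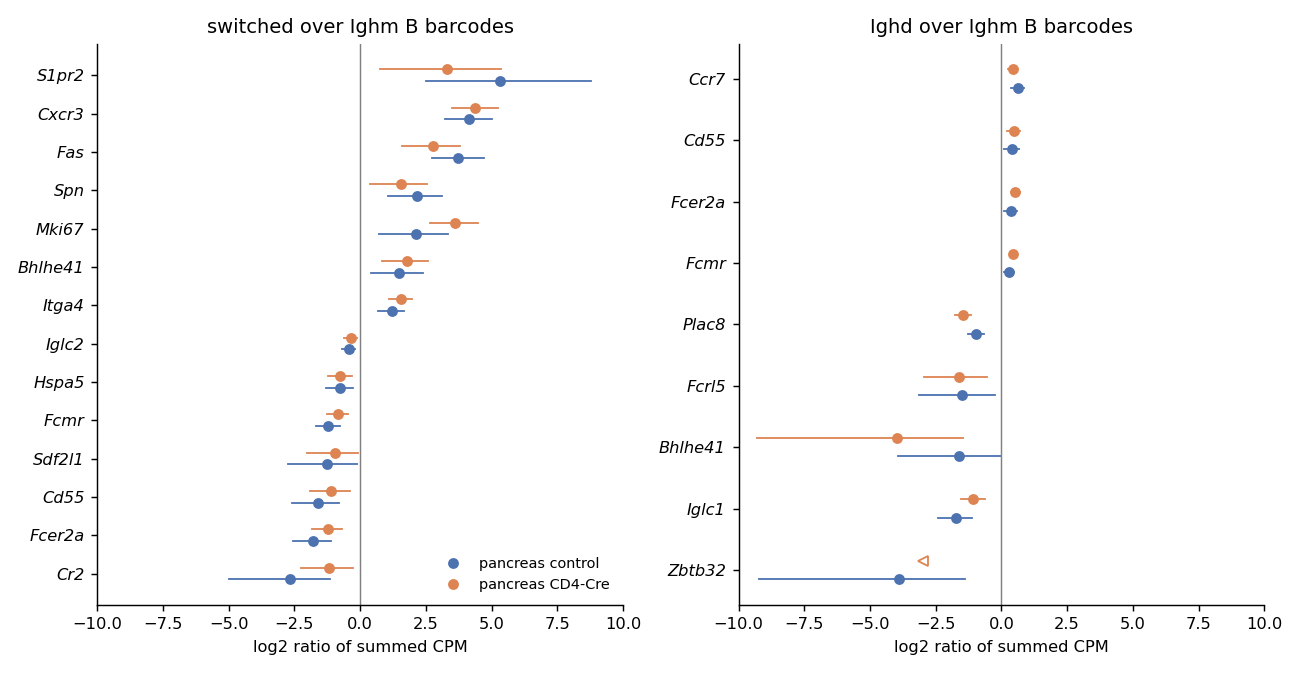
Log2 ratios of summed CPM in switched over Ighm-led B barcodes (left) and Ighd-led over Ighm-led B barcodes (right) for the list genes whose 95% interval lay on the same side of 0 in both pancreas libraries, control in blue and CD4-Cre in orange. Lines are the intervals and the open triangle is the upper limit for Zbtb32, which had no UMI in Ighd-led CD4-Cre barcodes; Cxcr3, at 4.13 and 4.38, is among the highest of the switched class.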

How the data were processed

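The deposited values are raw UMI counts for each gene in each cell barcode, whole and not normalized, from the 10x 5′ kit named in the labels' protocols. Per the submitters' processing notes, Cell Ranger and mm10 were used, and software version 3.0.0 wrote the matrices, per the file headers. The annotation is not given in the sources used here. Gene positions and sequences come from GENCODE M21, in which 30934 of 31053 identifiers were found.

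Barcodes with at least 500 genes and at most 10% mitochondrial UMIs were kept. Doublets were scored against 2 simulated doublets per barcode on 30 components of 2000 genes, and the highest 0.8% per 1000 listed barcodes were removed, 164 in pancreas control and 388 in pancreas CD4-Cre, of which 96 and 198 were B barcodes. The lymph node control library held 14851217 UMIs and the lymph node CD4-Cre library 27830077.

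UMIs of a gene were summed over a gate, divided by all UMIs of its barcodes and given as CPM, which is not divided by gene length because the kit counts 5′ ends. Shares have Clopper-Pearson intervals, differences of shares Newcombe intervals, sums exact Poisson intervals and ratios intervals from the conditional binomial. UMIs in 1 barcode are not independent of each other, so intervals and limits for a count of 0 (3 counts) cover counting error only. No test between genotypes was made, since there is 1 library per group. Background shares are over genes whose higher library had 50 or more UMIs. Genes most like a member were ranked by Pearson's r of log2(CPM + 1) over gates with at least 20 barcodes. The NK gate used Ncr1 and Klre1, the myeloid gate Lyz2, Cst3 and Tyrobp, and the neutrophil gate S100a8 and S100a9. The named genes are the 8 members and the lists for light chains, class switching, germinal centre, follicular naive, memory and atypical, marginal zone and B-1, plasma regulators, mucosal homing, secretory endoplasmic reticulum and immunoglobulin receptors. Some genes of the lists are not reported here. The members and lists were chosen with earlier results of these data known.

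Alternatives covered other barcode, gate and doublet rules, call rules, subtraction of the T-barcode level, thinning, library totals from edgeR 4.0.16 (TMM) and DESeq2 1.42.0 (size factors), and a pseudocount of 10 CPM. The scripts were tested on simulated data and ran in Python 3.11.15 with numpy 2.4.6, scipy 1.17.1, pandas 2.3.3, scikit-learn 1.9.0 and matplotlib 3.10.9, and in R 4.3.3.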

Additional observations from a re-analysis of the deposited data

Results flagged for a closer look

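The lymph node libraries, made from CD3+ cells, lie outside the comparison of B and plasma barcodes. The plasma gate of the lymph node CD4-Cre library held 905 Ighg1 UMIs in 3 barcodes, of which 2 were led by Ighg1, with 76 and 829 UMIs, and both had Ighv5-2 as the leading variable segment. The third was led by Igha with 16 UMIs. The plasma gate of the lymph node control library had 1 barcode, led by Ighg2b with 5 UMIs. The B gate of the lymph node control library held 72 Ighd UMIs and 166 Ighm UMIs in 42 barcodes, with 27 led by Ighm, 7 by Ighd and 0 by a switched member, which left 2.31 Ighm UMIs per Ighd UMI (1.74 to 3.08). The lymph node CD4-Cre library had 0 B barcodes, also among all listed barcodes, so no comparison could be made there.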

How the results depend on the processing

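Of 342 values under alternatives to 37 results, 293 stayed within the main interval or within 1.5 times a count, 48 moved and 1 reversed, a word kept for a change of sign where the main interval excluded 0. In the 14 differences whose main interval spanned 0, 13 values changed sign, among them those of Ighm in plasma barcodes with a sum of at least 10 (3.92 points) or 40 (3.25 points). The reversed one is the Ighg2b log2 ratio in plasma barcodes, 0.60 without the 5 barcodes with most UMIs, which leaves too few UMIs to give a direction. The Ighm share difference in B barcodes became 1.33 points when thinned to 1000 UMIs. The Ighg1 share difference in plasma barcodes became 50 points (0 of 10 against 8 of 16) under another doublet rule. There, barcodes with at least 2 Cd3 UMIs, or at least 10 of Lyz2 and Cst3 together, were left out in place of scored doublets. That rule also changed the make-up of the gate, with Igha leading in 1 and 2 barcodes against 7 and 8 in the main rule. The Ighm log2 ratio in B barcodes was -0.46 with TMM library sizes, -0.45 with DESeq2 size factors and -0.50 with the T-barcode level subtracted. Those library sizes moved all B-gate ratios by -0.06 (TMM) and -0.05 (DESeq2). In T barcodes, Ighm in pancreas control was at 226 CPM in the CD4 subset, 133 in CD8 and 169 with an Mki67 UMI. The CD4-Cre values were 238, 163 and 136. Lymph node values that moved were 332 with an Mki67 UMI in control, and 239 in CD8 and 193 with an Mki67 UMI in CD4-Cre. These subsets were chosen after seeing the data. Over all genes with a UMI in both libraries, 630 were higher and 530 lower by at least 2-fold in B barcodes (54.3% higher), against 64 and 22 (74.4% higher) in the main rule. Thinned to 1000 UMIs, the class comparisons kept 1 follicular gene lower in switched barcodes and 1 germinal centre gene higher, against 3 and 3, and 0 follicular genes higher in Ighd-led barcodes, against 3. No paired analysis was possible because each group has 1 library and no replicate number, so no library could be left out either. With 24 and 35 plasma barcodes, depth limits all shares in that gate.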

Other observations

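Light chain UMIs were counted beside the heavy chain classes. An Igkc UMI was present in 96.3% of control and 94.5% of CD4-Cre B barcodes and an Iglc2 UMI in 91.7% and 90.5%, so most B barcodes held UMIs of both light chain types. In T barcodes these shares were 2.99% and 3.87% for Igkc and 0.427% and 0.416% for Iglc2. Summed over Iglc1, Iglc2 and Iglc3, lambda UMIs outnumbered kappa UMIs in 55.0% (51.2% to 58.8%) of Ighm-led B barcodes of control with more of either type, and in 57.2% (53.9% to 60.4%) of those of CD4-Cre. In Ighd-led B barcodes the shares were 47.3% and 61.1%, and in switched B barcodes 53.6% and 40%. Among switched plasma barcodes kappa led more often, with lambda ahead in 3 of 14 in control and 6 of 20 in CD4-Cre. The Iglc genes are close copies, so counts of a single lambda gene are uncertain. Because most B barcodes held UMIs of both types, a lead in UMIs does not show which light chain a cell used. Light chain use was not tested.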
